A study of Mus musculus with 6 samples.

Results

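Interleukin ligands, their receptor chains and their natural antagonists were followed in 6 spontaneous tumors of mice that carry NT3, a Cre-activated transgene for a form of the kinase NIK that lacks its TRAF3-binding domain. The members were all gene entries whose symbol starts with Il and a number, which gave 85 of 23358 entries. By role they comprised 38 ligands, 38 receptor chains, 6 antagonists or decoy receptors and 3 genes that carry such a symbol without being interleukins by function (Il4i1, an amino acid oxidase, and the neuronal genes Il1rapl1 and Il1rapl2). Receptor chains and ligands of the same families with other names, such as Csf2rb, Lifr and Osm, were kept as a separate list.

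RNA-seq gene counts came from 3 Osx-Cre;NT3 and 3 FSP1-Cre;NT3 tumors, each from 1 female mouse. The Osx-Cre;NT3 mice, whose background mixed C57Bl/6J with CD1, expressed Cre from a Tet-OFF Osx (osterix) driver held back by doxycycline chow until weaning, and their tumors 13, 18 and 25 all lay on the trunk and appeared at 150, 168 and 115 days. The FSP1-Cre;NT3 mice combined a Cre driven by FSP1 (S100a4) on FVB/n with NT3 on C57Bl/6J. Their tumor 29 lay on the trunk and appeared at 72 days, and their tumors 27 and 36 were perineal and appeared at 101 and 52 days. All 6 tumors carried the active transgene, and Cre-negative mice and tumor-free tissue were not analysed here. Both drivers are known to act outside the mesenchyme as well, and line, genetic background and age at tumor onset cannot be told apart. Since both perineal tumors belonged to the FSP1-Cre;NT3 line, site was compared with line in view.

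Total counts ranged from 51824408 to 163297772 per tumor. Levels within a gene are given as CPM, the read count scaled to the size of the library with TMM factors, and genes of different length are compared only by the authors' RPKM. A count of 0 allows up to 3 counts, which was from 0.0195 to 0.0621 CPM, and this limit covers counting error only. The series title calls the tumors soft tissue sarcoma, which the authors proposed from histology, immunostaining and the expression pattern of the Cre drivers. At the RNA level, basal keratinocyte markers were abundant in all of them, with 5738 to 14643 CPM summed over 6 genes. The 6 fibroblast markers summed to 5191 to 14991 CPM. The authors regarded skin terms in their own gene ontology results as likely contamination by skin over the tumors. The part of such skin in the levels given here was not tested. Map3k14, which encodes NIK, had 38.7 to 118 CPM, and gene counts do not separate transgene from endogenous transcripts. Tumor 36 stood apart, with 4717 CPM of simple epithelium markers against 664 to 1273 CPM in the others. In whole tumors, fewer cells of a type and less RNA per cell cannot be told apart.

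Interleukins are secreted signals between immune, epithelial and stromal cells. Members of the IL-1 family act through receptors that recruit MYD88, those of the IL-17 family through adaptors that reach NF-κB, and most others through receptor pairs that share a chain and activate Janus kinases and STAT proteins. In skin, keratinocytes are both a source and a target of these signals. NIK is the central kinase of the non-canonical NF-κB pathway, and several interleukin genes are classical NF-κB targets.

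The receptor side of the system was expressed far more broadly than the ligand side. The median over members of the mean RPKM was 5.10 for the 38 receptor chains and 0.312 for the 38 ligands. In all, 35 of 85 members reached 1 RPKM in every tumor, of which 22 were receptor chains, 9 ligands and 3 antagonists or decoys, with Il4i1 as the last. By contrast, 31 members stayed under 1 RPKM in every tumor, of which 20 were ligands and 7 receptor chains. No ligand reached 10 RPKM in every tumor, and 7 receptor chains did. The summed RPKM of the ligands ranged from 44.0 in tumor 25 to 111.8 in tumor 36, and that of the receptor chains from 326 in tumor 13 to 442 in tumor 25.

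**Figure D1:**
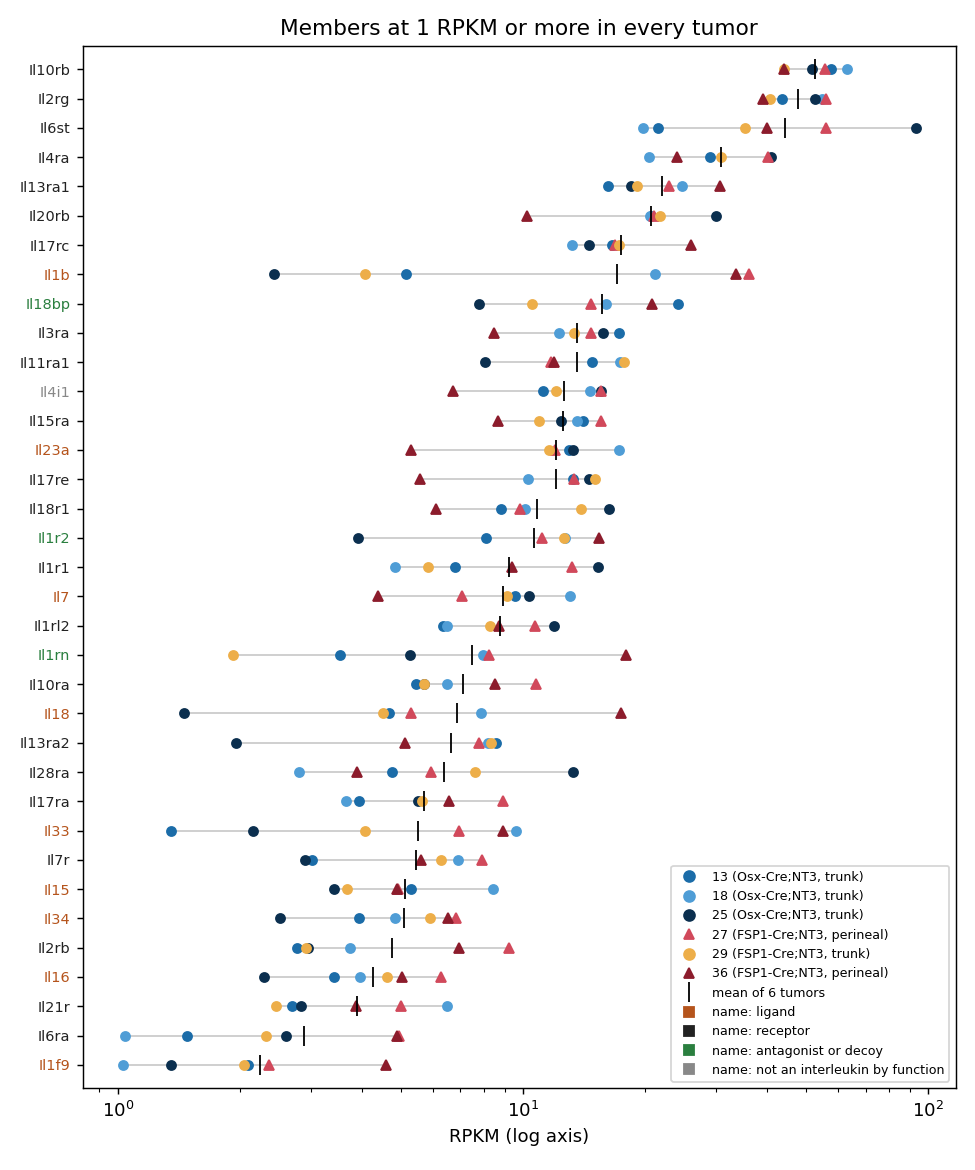
RPKM (log axis) of the 35 members that reached 1 RPKM in every tumor, with a point per tumor and a bar for the mean of 6 tumors. Receptor chains fill the upper rows, led by Il10rb at a mean of 52.6 RPKM, while the ligand Il1b spans the widest range of the upper rows, from 2.43 to 36.1 RPKM.

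The most abundant members were shared receptor chains. Il10rb, the common second chain of the IL-10, IL-22 and lambda interferon receptors, had 52.6 ± 7.65 RPKM (SD, n = 6 tumors) and ranked 1145 among all entries. Il2rg, the common gamma chain, had 47.7 ± 7.49 RPKM, and Il6st, the signal chain of the IL-6 family also called gp130, had 44.3 ± 27.3 RPKM. Il10rb and Il2rg lay within each other's spread. Il6st overlapped both of them too, because it varied more, from 19.8 RPKM in tumor 18 to 93.1 RPKM in tumor 25. Il10rb and Il2rg share exons with overlapping annotated genes on the same strand, so part of their reads may belong to those. Next followed Il4ra, the signal chain for IL-4 and IL-13, at 30.8 ± 8.35 RPKM, its partner Il13ra1 at 22.0 ± 5.25 RPKM, and Il20rb, a chain of the IL-20 and IL-24 receptors that is typical of epidermis, at 20.7 ± 6.24 RPKM. These last levels overlapped between neighbors.

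In several receptors 1 chain was well above the other. Il20ra, a chain that pairs with Il20rb, had at most 0.314 RPKM, and the ratio of Il20rb to Il20ra was from 32.5 in tumor 36 to 1385 in tumor 13. Il6ra, which binds IL-6 and hands it to Il6st, was lower than Il6st in all 6 tumors, with a ratio of Il6st to Il6ra from 8.19 to 35.8. Il10ra, which binds IL-10 itself, was below Il10rb in all 6 tumors as well, with a ratio of Il10rb to Il10ra from 5.15 to 10.5. Among the receptors for IL-17 cytokines, Il17rc had 17.4 ± 4.45 RPKM, Il17re, the receptor for IL-17C, 12.03 ± 3.57 RPKM, and the shared chain Il17ra 5.70 ± 1.92 RPKM. Il17rb and Il17rd stayed below 1 RPKM on average, at 0.670 ± 0.0818 and 0.904 ± 0.466 RPKM.

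Few ligands were abundant, and most of these belonged to the IL-1 family or act on lymphocytes. Il1b, the inflammatory ligand that caspase-1 activates, had the highest mean of any ligand at 17.1 ± 15.3 RPKM. Its level was 9.06, 37.0, 3.97 and 6.77 CPM in trunk tumors 13, 18, 25 and 29, and 54.2 and 55.0 CPM in perineal tumors 27 and 36. Both perineal tumors lay above all trunk tumors, though tumor 18 came close. Il23a, the p19 chain of IL-23, followed at 12.1 ± 3.87 RPKM. It exceeded Il12b, the p40 chain with which it forms IL-23, in every tumor, with a ratio of RPKM from 10.6 to 80.7. Il12a, which pairs with the same p40 chain to form IL-12, had at most 0.208 RPKM. Il7, the survival factor of T cells that keratinocytes make, had 8.92 ± 2.96 RPKM, and its receptor chain Il7r 5.44 ± 2.07 RPKM. Il15 had 5.10 ± 1.80 RPKM and its presenting chain Il15ra 12.5 ± 2.44 RPKM. Il34, a second ligand of the CSF1 receptor, had 5.09 ± 1.66 RPKM, and Il16, a T cell attractant, 4.26 ± 1.37 RPKM. Il16 shares exon bases with Stard5 on the other strand, and without a stated strandedness their reads cannot be told apart.

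The alarmins of the IL-1 family, which epithelial cells hold ready and release on damage, were present at moderate levels. Il33 had 4.68, 33.1, 6.89 and 13.3 CPM in trunk tumors 13, 18, 25 and 29, and 20.4 and 28.7 CPM in perineal tumors 27 and 36. Il18 had 5.38, 8.98, 1.55 and 4.90 CPM in the trunk tumors and 5.18 and 18.7 CPM in the perineal ones. For both ligands the sites overlapped, with the trunk tumor 18 highest for Il33 and tumor 36 highest for Il18. Il1a varied less, between 2.15 CPM in tumor 27 and 4.19 CPM in tumor 25.

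The IL-36 ligands, which keratinocytes make in inflamed skin, differed among themselves. Il1f9 (IL-36 gamma) was present in every tumor at 2.24 ± 1.25 RPKM. Il1f6 (IL-36 alpha) and Il1f8 (IL-36 beta) were low except in tumor 36, where they had 3.77 and 5.40 RPKM against at most 0.493 and 0.984 RPKM in the other 5. Their receptor Il1rl2 was even across tumors at 8.75 ± 2.25 RPKM. Il1f5, the antagonist of that receptor, was 13.9 CPM in tumor 36, 4.59 CPM in tumor 13 and 0.197 to 2.26 CPM in the others. The same tumors, 13, 29 and 36, had the highest levels of the suprabasal keratins Krt1 and Krt10, and of Ivl, Lor and Krtdap of the same marker list. Other genes of that list went otherwise. Sbsn was lower in tumor 29 (27.0 CPM) than in tumors 18 and 25 (41.8 and 39.3 CPM). Dsg1a was lowest in tumor 36 (167 CPM) and highest in tumor 25 (480 CPM). Whether any of these levels is linked to Il1f5 was not tested.

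Of the 6 antagonists and decoys, 3 reached 1 RPKM in every tumor. Il18bp, the soluble inhibitor of IL-18, exceeded Il18 in all 6 tumors, with a ratio of RPKM from 1.20 in tumor 36 to 5.33 in tumor 25. Il1rn, the IL-1 receptor antagonist, had 12.6, 28.3, 17.4 and 6.49 CPM in trunk tumors 13, 18, 25 and 29, and 25.0 and 59.9 CPM in perineal tumors 27 and 36. It was below Il1b by RPKM in 5 of 6 tumors, and tumor 25 was the exception with a ratio of 2.16. Il1r2, the decoy receptor of IL-1, had 14.5, 22.4, 6.44 and 21.3 CPM in the trunk tumors and 16.9 and 25.6 CPM in the perineal ones, and exceeded the signaling receptor Il1r1 by RPKM in 4 of 6 tumors. The groups overlapped for both.

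Ligands typical of activated T cells and innate lymphoid cells were low. Il4, Il13, Il17a and Il17f had at most 0.719, 1.25, 0.969 and 1.503 CPM, and Il2 at most 0.454 CPM. Il5, Il9, Il3, Il21, Il22 and Il25 had at most 0.187 CPM in any tumor. The count was 0 in every tumor for Il28a, Il11ra2, Il1rapl1 and Il1rapl2, and Il28b had counts in tumor 18 alone. Il28a and Il28b, and likewise Il11ra1 and Il11ra2, are near-identical copies, so the counting may have assigned their reads to 1 copy or dropped them. Il10, the anti-inflammatory cytokine, had 0.0281 to 1.06 CPM, while its receptor chain Il10ra had 24.4 to 42.5 CPM.

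Between tumor sites, more members were on the perineal than on the trunk side. By edgeR's quasi-likelihood test, adjusted by Benjamini-Hochberg over 16971 genes, 0 of 68 members tested and 0 genes in all (0%) differed between the 2 perineal and the 4 trunk tumors at an adjusted p under 0.05, and the smallest adjusted p of any gene was 0.263. At an unadjusted p under 0.05, 22 members and 1784 genes were counted. Of these, 20 members (29.4% of those tested) were higher in the perineal tumors, beside 8.88% of all genes, and 2 (2.94%) were lower, beside 1.63% of all genes. DESeq2, the alternative test, called 6 of 68 members (8.82%) and 598 genes (3.52%). Il6, Il2ra, Il2rb, Il1rl1 and Il22ra1 were the 5 higher members, beside 3.31% of all genes, and Il7 the 1 lower, beside 0.212%. In 24 members (35.3%) both perineal tumors lay above all 4 trunk tumors, against 10.3% of all genes, and in 4 members (5.88%) both lay below, against 9.36%. Members that pass a filter on low counts only through the tumors where they are high tend to differ, and among the 55 members with at least 10 counts in every tumor 16 (29.1%) lay above, against 9.26% of all such genes. Over the members tested, the median log2 fold change was 0.48, against -0.02 over all genes. Each p measures the spread between individual tumors, which were few. Without tumor 36 edgeR counted 8 members (11.6%, beside 2.02% of all genes) at an unadjusted p under 0.05, and DESeq2 called 0 members and 0.0807% of all genes. DESeq2 called 2 members (2.94%, beside 1.88%) without tumor 13 and 10 (14.7%, beside 3.88%) without tumor 18. With line as a covariate edgeR counted 6 members at an unadjusted p under 0.05 (8.82%, beside 1.55%), all higher in the perineal tumors.

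**Figure D2:**
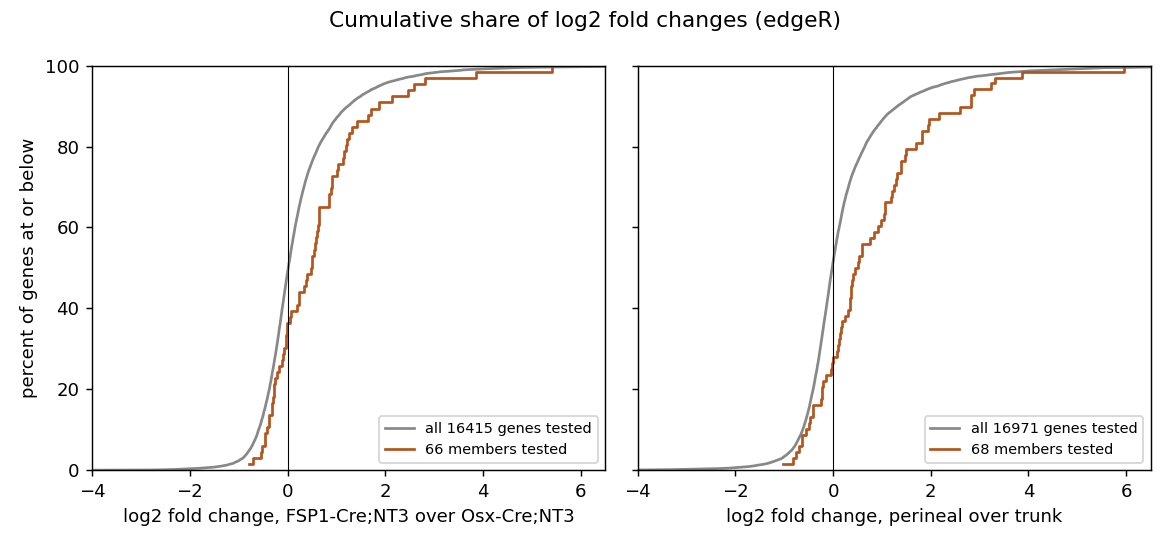
Cumulative share of log2 fold changes (edgeR) for members and for all genes tested, between lines at left and between sites at right. The curve of the members lies to the right of that of all genes in both panels, with medians of 0.49 against 0.01 between lines and 0.48 against -0.02 between sites.

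Il6, which drives the acute phase and T cell differentiation, was low in every trunk tumor. It had 0.331, 0.844, 0.169 and 0.205 CPM in trunk tumors 13, 18, 25 and 29 and 2.76 and 3.03 CPM in perineal tumors 27 and 36. The groups did not overlap, and trunk tumor 29, of the same line as the perineal tumors, was at the trunk level. The log2 fold change was 2.88 (SE 0.70), with an adjusted p of 0.271 by edgeR and 0.0130 by DESeq2. Without tumor 36, where tumor 27 was the only perineal tumor left, the log2 fold change was 2.81.

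Il2ra and Il2rb, the alpha and beta chains of the IL-2 receptor, both had their highest levels in the 2 perineal tumors. Il2rb, which also serves IL-15, had 9.93, 13.3, 9.77 and 9.84 CPM in trunk tumors 13, 18, 25 and 29 and 28.1 and 23.2 CPM in the perineal ones. Its log2 fold change of 1.25 (SE 0.25) had the smallest unadjusted p of any member, with an adjusted p of 0.263 by edgeR and 0.000776 by DESeq2. Il2ra had 5.88, 11.2, 7.09 and 6.18 CPM in the trunk tumors and 18.3 and 19.3 CPM in the perineal ones, a log2 fold change of 1.30 (SE 0.33) with an adjusted p of 0.280 by edgeR and 0.0230 by DESeq2. The groups did not overlap for either chain. Il2rg, the third chain of the receptor, gave a log2 fold change of -0.14 (SE 0.23). Among markers of T cells, Foxp3, which marks regulatory T cells that carry Il2ra, had 7.98 and 7.44 CPM in the perineal and 1.12 to 3.46 CPM in the trunk tumors. Cd4 and Cd3e were also above all trunk tumors in both perineal tumors. By contrast, Cd2, Lck, Cd3d, Cd3g and Cd8a were highest in trunk tumor 18. The 8 T cell markers summed to 148 and 126 CPM in the perineal and 59.7 to 198 CPM in the trunk tumors. At an unadjusted p under 0.05 edgeR counted 2 of these 8, beside 10.5% of all genes. The part of T cells in the levels of Il2ra and Il2rb was not tested.

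Il1rl1, the receptor of IL-33 that mast cells and type 2 lymphocytes carry, had 5.01, 9.18, 3.29 and 12.02 CPM in trunk tumors 13, 18, 25 and 29 and 27.0 and 25.5 CPM in perineal tumors 27 and 36. Neither the sites nor the lines overlapped, since trunk tumor 29 lay between the Osx-Cre;NT3 and the perineal tumors. The log2 fold change between sites was 1.83 (SE 0.49), with an adjusted p of 0.288 by edgeR and 0.0316 by DESeq2. Between the lines it was 1.88 (SE 0.49), with an adjusted p of 0.441 by edgeR and 0.0148 by DESeq2. The 8 mast cell markers moved with the line, with sums of 16.5 to 80.4 CPM in Osx-Cre;NT3 and 297 to 373 CPM in FSP1-Cre;NT3 tumors. All 8 were at an unadjusted p under 0.05 between lines, 6 of 8 were called by DESeq2, and Ms4a2 was at 0 in tumor 25. The part of mast cells in the level of Il1rl1 was not tested.

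Il22ra1, the epithelial chain of the IL-22 receptor, was detected at a high level in 1 tumor only. It had 0.248, 0.182, 0.338, 0.337 and 0.282 CPM in tumors 13, 18, 25, 27 and 29 and 32.3 CPM in tumor 36. The other perineal tumor was thus at the trunk level, and the sites overlapped. Its log2 fold change between sites was 5.95 (SE 1.31), with an adjusted p of 0.263 by edgeR and 6.55e-05 by DESeq2, and without tumor 36 it was 0.36. The simple epithelium markers Krt8, Krt19 and Cldn3 had their highest levels in the same tumor, at 2247, 1091 and 397 CPM against at most 429, 43.3 and 5.97 CPM elsewhere. Of the other 3 genes of that list, Epcam was highest there too, while Krt18 was highest in tumor 18 (444 CPM, against 245 CPM in tumor 36) and Cldn4 was lowest in tumor 36, at 60.1 CPM against 88.9 to 188 CPM. The part of such cells in the level of Il22ra1 was not tested. Il20ra had 0.245 and 0.812 CPM in the perineal and 0.0414 to 0.130 CPM in the trunk tumors, a log2 fold change of 2.83 (SE 0.77) with an adjusted p of 0.292 by edgeR and 0.138 by DESeq2. In 3 of the 4 trunk tumors it had at most 4 counts, so it entered the test only through the tumors where it was high, and the test supports no difference.

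Il7 was the member called lower by DESeq2. It had 31.4, 42.7, 31.4 and 28.3 CPM in trunk tumors 13, 18, 25 and 29 and 19.7 and 13.4 CPM in perineal tumors 27 and 36. The sites did not overlap, nor did the lines. The log2 fold change between sites was -1.02 (SE 0.29), with an adjusted p of 0.305 by edgeR and 0.0322 by DESeq2. The other members below all trunk tumors in both perineal tumors were Il18r1, Il20rb and Il23a.

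**Figure D3:**
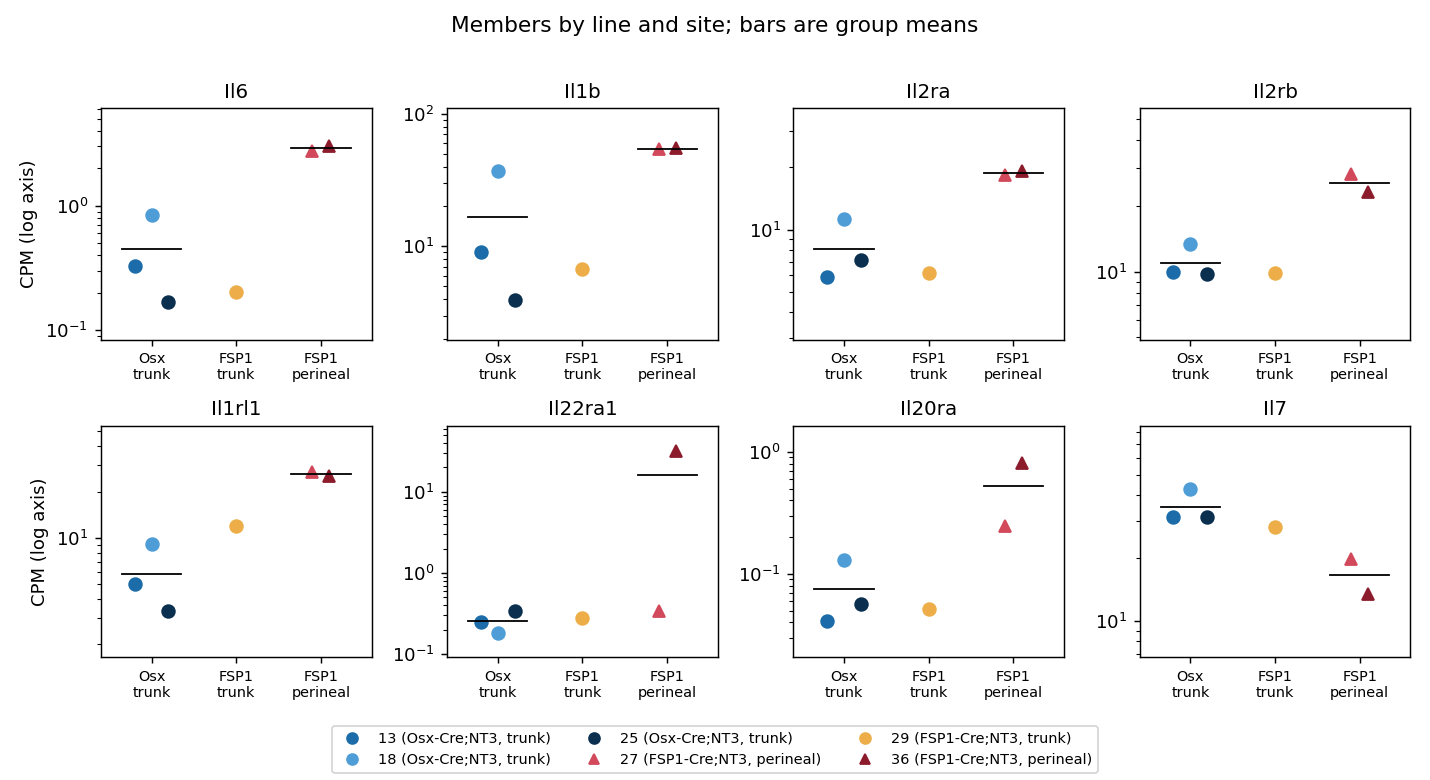
CPM (log axis) of 8 members in each tumor, grouped by line and site, with group means as bars. In Il6, Il1b, Il2ra, Il2rb, Il1rl1 and Il20ra both perineal tumors lie above all trunk tumors, in Il7 both lie below, and Il22ra1 is raised in tumor 36 alone. Il20ra had at most 4 counts in 3 of the 4 trunk tumors.

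Because NIK acts on NF-κB, the 250 bases upstream of the annotated start of each member were searched for the consensus κB motif. This binding sequence of NF-κB dimers was taken as GGGRNNYYCC (R a purine, Y a pyrimidine, N any base), on both strands. RefSeq promoter sequences (GRCm38.p6) were found by symbol for 65 of 85 members. The motif occurred in 6 of 65 (9.23%), namely Il6, Il2ra, Il22ra1, Il1r1, Il19 and Il16, and in 2225 of 27025 genes (8.23%). The 3 windows below are those of members that DESeq2 called between sites. All 3 are written as the plus strand of the genome, with the motif in capitals. They lie at chr5:30012864-30013113 for Il6, chr2:11642542-11642791 for Il2ra and chr4:135727909-135728158 for Il22ra1. The match of Il22ra1, and the latter of the overlapping matches of Il2ra, read as the consensus on the minus strand only.
Il6: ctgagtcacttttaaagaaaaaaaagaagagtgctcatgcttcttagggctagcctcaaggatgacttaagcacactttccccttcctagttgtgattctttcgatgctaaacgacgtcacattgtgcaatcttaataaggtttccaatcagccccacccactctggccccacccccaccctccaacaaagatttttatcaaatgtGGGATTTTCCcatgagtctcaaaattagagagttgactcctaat
Il2ra: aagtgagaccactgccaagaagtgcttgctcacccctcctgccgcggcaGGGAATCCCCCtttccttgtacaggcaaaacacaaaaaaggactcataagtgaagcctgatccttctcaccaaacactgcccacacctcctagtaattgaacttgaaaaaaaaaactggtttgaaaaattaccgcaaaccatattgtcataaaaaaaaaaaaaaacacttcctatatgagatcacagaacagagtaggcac
Il22ra1: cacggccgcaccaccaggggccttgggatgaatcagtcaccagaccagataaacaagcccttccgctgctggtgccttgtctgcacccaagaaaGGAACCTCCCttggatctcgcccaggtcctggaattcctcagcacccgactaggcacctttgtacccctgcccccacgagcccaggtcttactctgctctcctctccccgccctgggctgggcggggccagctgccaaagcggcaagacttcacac
The motif ended 35 bases before the start of Il6, 191 bases before that of Il2ra, where 2 matches overlap, and 147 bases before that of Il22ra1. The share among members was close to that of all genes, and a match describes the letters of the window only.

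The remaining members of the fixed set gave these differences between sites, all with edgeR adjusted p from 0.307 to 0.970. Il1b had a log2 fold change of 1.94 (SE 0.80) and Il1rn of 1.38 (SE 0.57), while Il6ra had 1.29 (SE 0.37) with an adjusted p of 0.307. Reads of Il6ra and of an overlapping gene on the other strand cannot be told apart. Those of Il18, Il33 and Il34 were 1.19 (SE 0.71), 0.76 (SE 0.72) and 0.51 (SE 0.37). Il1r2 gave 0.39 (SE 0.49), Il4ra -0.04 (SE 0.31), Il1a -0.50 (SE 0.39) and Il20rb -0.70 (SE 0.31). Il6ra had 4.58 to 10.7 CPM in the trunk and 18.7 and 20.2 CPM in the perineal tumors, without overlap. Both the ligand Il6 and its binding chain were therefore at their highest values in the perineal tumors, while Il6st overlapped between sites with 142 to 624 CPM on the trunk and 345 and 270 CPM in the perineal tumors.

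Between the lines, which the labels make the study's groups, fewer members differed by these counts. By the same edgeR test and adjustment over 16415 genes, 0 of 66 members and 0 genes in all (0%) differed at an adjusted p under 0.05, with a smallest adjusted p of 0.359. At an unadjusted p under 0.05, 7 members (10.6%) were higher in FSP1-Cre;NT3, beside 7.31% of all genes, and 1 (1.52%) was lower, beside 3.47%, out of 1770 genes counted. DESeq2 called 412 genes (2.51%) and 3 members (4.55%), the receptor genes Il1rl1 and Il1rap and the decoy receptor Il22ra2. All 3 were higher in FSP1-Cre;NT3, beside 2.11% of all genes, and 0 members were lower, beside 0.396%. In 9 members (13.6%) the FSP1-Cre;NT3 tumors lay above all Osx-Cre;NT3 tumors, against 9.03% of all genes, and in 4 members (6.06%) below, against 7.97%. These shares lie near those of all genes. Among the 55 members with at least 10 counts in every tumor, DESeq2 called 2 (3.64%, beside 2.51% of all genes tested), Il1rl1 and Il1rap. Its share over all genes with such counts was not computed. Of these 55 members, 8 (14.5%) lay above, beside 8.15% of all genes with such counts. Leaving out 1 tumor moved the counts of members and of all genes. DESeq2 called 9 members (13.2%) but 21.6% of all genes without tumor 25, 5 members (7.35%, beside 3.01%) without tumor 18, 8 (11.8%, beside 4.39%) without tumor 29, 2 (3.03%, beside 2.74%) without tumor 27 and 0 (beside 1.13%) without tumor 36. The share of members above all Osx-Cre;NT3 tumors was 21.2% without tumor 13, 28.8% without tumor 18 and 21.2% without tumor 25, beside 11.2%, 14.4% and 23% of all genes. It was 15.2% without tumor 27, 34.8% without tumor 29 and 16.7% without tumor 36, beside 11.5%, 14.6% and 13.5% of all genes. The median log2 fold change of the members was 0.49, against 0.01 over all genes, and among trunk tumors alone it was -0.03 with 1 FSP1-Cre;NT3 tumor. RNA integrity numbers, given in the design text as averages, were higher for FSP1-Cre;NT3 (8.5) than for Osx-Cre;NT3 (7.7), and their part in these differences was not tested.

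Il22ra2, a soluble decoy that binds IL-22, was low in the Osx-Cre;NT3 tumors. It had 0.124, 0.104 and 0.0281 CPM in tumors 13, 18 and 25 and 1.17, 0.436 and 2.16 CPM in tumors 27, 29 and 36. The lines did not overlap. With 6, 16 and 2 counts in the Osx-Cre;NT3 tumors it passed the filter on low counts only through the FSP1-Cre;NT3 tumors, so its call supports nothing about the members. The log2 fold change was 3.86 (SE 0.84), which depends on the prior count at levels this low, with an adjusted p of 0.432 by edgeR and 0.00350 by DESeq2. On trunk tumors alone it was 2.33. Its ligand Il22 had at most 0.0389 CPM.

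Il1rap, the accessory chain that the receptors of IL-1, IL-33 and IL-36 share, had 6.79, 9.85 and 6.08 CPM in tumors 13, 18 and 25 and 16.5, 14.2 and 21.5 CPM in tumors 27, 29 and 36. All FSP1-Cre;NT3 tumors were above all Osx-Cre;NT3 tumors, the trunk tumor 29 included. The log2 fold change was 1.20 (SE 0.30), with an adjusted p of 0.441 by edgeR and 0.0184 by DESeq2, and on trunk tumors alone it was 0.90. Together with Il1rl1, both chains of the IL-33 receptor thus had higher values in FSP1-Cre;NT3 tumors, while the ligand Il33 overlapped between the lines with a log2 fold change of 0.48 (SE 0.74). Fibroblast markers moved with the line as well, with all 6 higher in every FSP1-Cre;NT3 tumor, 4 of them called by DESeq2 (Col3a1, Pdgfra, Col1a2 and Col1a1), and sums of 11537 to 14991 CPM against 5191 to 6738 CPM. The part of fibroblasts or mast cells in these levels was not tested. Il1rap shares exon bases with an annotated gene on the opposite strand, whose reads cannot be told apart.

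The other members with the smallest unadjusted p between lines were Il22ra1, with a log2 fold change of 5.42 (SE 1.95) that rests on tumor 36, Il6ra with 1.15 (SE 0.43) and Il17rd, a further receptor of the IL-17 family, with 1.14 (SE 0.43). Each had an adjusted p of 0.458 by edgeR. Without tumor 36 the value of Il22ra1 was 0.28. Il17rd had 4.26, 3.49 and 9.29 CPM in Osx-Cre;NT3 and 11.5, 10.997 and 15.2 CPM in FSP1-Cre;NT3 tumors, without overlap. Of the fixed set, Il6 had a log2 fold change of 2.13 (SE 1.04), Il1b 1.21 (SE 1.00), Il18 0.85 (SE 0.77), Il34 0.66 (SE 0.32), Il1rn 0.65 (SE 0.73) and Il1r2 0.56 (SE 0.45). Il4ra gave -0.02 (SE 0.29), Il20rb -0.52 (SE 0.31) and Il1a -0.54 (SE 0.34), and the edgeR adjusted p of these 9 members and of Il33 was at least 0.466. For Il6, Il1b, Il1rn, Il18 and Il33 the direction turned on trunk tumors alone, where tumor 29 was the only one of its line.

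**Figure D4:**
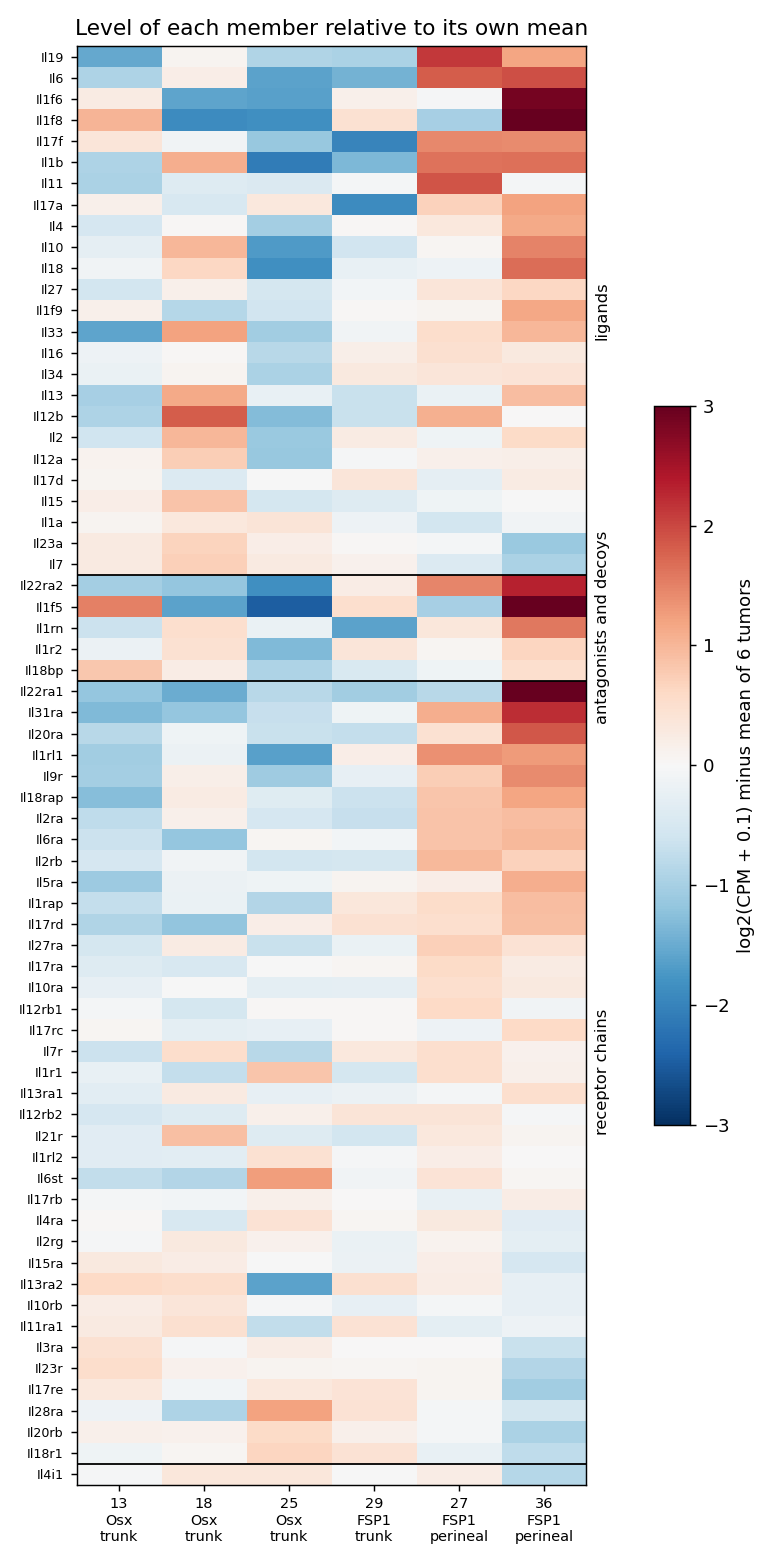
Level of the 68 members tested between sites in each tumor, as log2(CPM + 0.1) minus the mean of the 6 tumors (colors end at -3 and 3), ordered by role and by the log2 fold change between sites. Tumor 36 held the highest level of 28 members and trunk tumor 25 the lowest level of 25.

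Tumors 36 and 25 most often held the extreme values of the members. Of 68 members, 28 (41.2%) had their highest level in tumor 36, where 25.5% of all genes tested did, and 11 (16.2%) in tumor 27, where 7.66% did. Tumor 25 held the lowest level of 25 members (36.8%), beside 18.9% of all genes, and among them were Il1b, Il6, Il18, Il1r2, Il18bp and Il13ra2. Tumor 25 was also the highest for Il6st, at 624 CPM, and for Il20rb, at 90.8 CPM. It had the lowest sums of T cell and of mast cell markers, at 59.7 and 16.5 CPM. By role and family, all 5 antagonists and decoys tested, and 15 of 17 IL-1 family members tested, had a positive log2 fold change between sites. Their medians were 1.38 and 1.04, against -0.02 over all genes, and the share of all genes with a positive value was not computed. The sets share 4 members, Il1r2, Il1f5, Il1rn and Il18bp. Il1f5, Il1f6 and Il1f8 overlapped between sites, with their highest level in tumor 36. Il22ra2 had only 6, 16 and 2 counts in tumors 13, 18 and 25. Receptor chains were more mixed, with 24 of 37 positive and a median of 0.35.

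The genes that carry the signals of the members were followed as fixed lists. None of 55 genes in the lists of receptor chains and ligands with other names, Janus kinases and STATs, signal proteins of IL-1 and IL-17, inflammasome genes and feedback inhibitors passed edgeR's adjusted threshold in either comparison, and at an unadjusted p under 0.05 edgeR counted 1 between lines (1.82%, beside 10.8% of all genes) and 7 between sites (12.7%, beside 10.5%). Between sites, DESeq2 called 3 of them (5.45%, beside 3.52% of all genes), all higher in the perineal tumors. These were Osm, a ligand of the IL-6 family that signals through Il6st, Irak3, an inhibitor in the IL-1 pathway, and Socs3, the feedback inhibitor that IL-6 induces. Socs3 had 16.6, 20.4, 25.4 and 18.0 CPM in trunk tumors 13, 18, 25 and 29 and 50.2 and 44.9 CPM in perineal tumors 27 and 36, a log2 fold change of 1.23 (SE 0.24) with an adjusted p of 0.263 by edgeR and 0.00142 by DESeq2. Il6, Il6ra and Osm also had their highest levels in perineal tumors 27 and 36, and a link between them and Socs3 was not tested. Csf2rb, the shared signal chain of the IL-3 and IL-5 receptors, had 178 to 492 CPM, and part of its reads cannot be told apart from those of its near-identical copy Csf2rb2. Il3 and Il5 had at most 0.0312 and 0.143 CPM. Of the signal proteins downstream, Stat3 ranged from 127 to 337 CPM, Jak1 from 139 to 203 CPM, Stat6 from 119 to 169 CPM and Jak2 from 123 to 151 CPM.

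Known target genes of interleukins were taken as 3 further lists, with 0 genes past edgeR's adjusted threshold. Of 10 genes of the IL-17 and IL-22 list tested, DESeq2 called Ccl20 lower and S100a9 and Cxcl5 higher in FSP1-Cre;NT3. Ccl20, a chemokine that IL-17 and NF-κB induce, had 955, 1430.3 and 1259 CPM in Osx-Cre;NT3 and 441, 389 and 371 CPM in FSP1-Cre;NT3 tumors, without overlap, and a log2 fold change of -1.60 (SE 0.24) with an adjusted p of 0.359 by edgeR and 2.26e-08 by DESeq2. Il17a and Il17f were at most 0.662 CPM in the Osx-Cre;NT3 tumors, and their part in the level of Ccl20 was not tested. Between sites, DESeq2 called S100a8, S100a9 and Cxcl5 of this list higher in the perineal tumors, and Saa3 and Socs3 of the 6 genes of the IL-6 list. S100a8 and S100a9 are also neutrophil markers, and the 7 neutrophil genes summed to 166 and 482 CPM in the perineal and 23.8 to 67.5 CPM in the trunk tumors. DESeq2 called 5 of these 7 between sites, beside 3.52% of all genes. S100a8 and S100a9 made up most of the sums in the perineal tumors. Of the same list, Mmp8 had 2.67 to 3.97 CPM and overlapped between sites, and Ngp had at most 1.12 CPM. The part of neutrophils in the levels of Il1b, Il1rn and Il1r2, which they express, was not tested. Of the 8 genes of the IL-4 and IL-13 list, Mrc1 and Ccl24 were called higher in the perineal tumors by DESeq2. Between lines DESeq2 called Mrc1 (adjusted p 0.0143) and, of the IL-6 list, Lbp (adjusted p 0.000907), both higher in FSP1-Cre;NT3, and the lines did not overlap for either. In all, DESeq2 called 5 of 23 genes tested of the 3 lists between lines (21.7%, beside 2.51% of all genes). Between sites it called 7 of 24 (29.2%, beside 3.52%). The lists were chosen with earlier results of these data known, so these shares support nothing about the targets as a set. S100a8, S100a9 and Mrc1 are also on the cell marker lists, and Socs3 is also on that of feedback inhibitors. Cxcl5 and Ccl24 had at most 0.844 and 1.09 CPM in the trunk tumors. Il4 and Il13 stayed at or below 1.25 CPM.

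**Figure D5:**
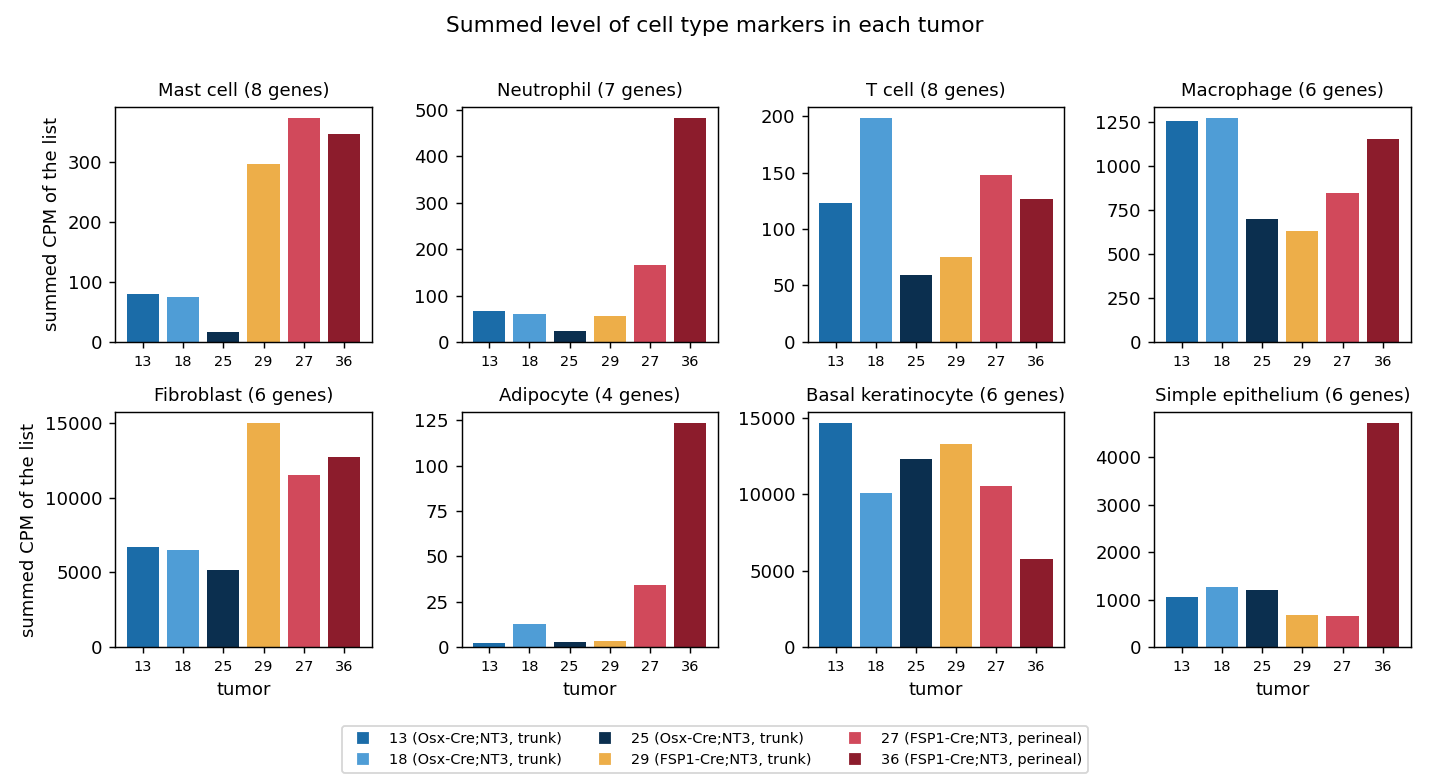
Summed CPM of 8 lists of cell type markers in each tumor, with trunk tumors 13, 18, 25 and 29 at left and perineal tumors 27 and 36 at right. Mast cell markers are at 297 to 373 CPM in the 3 FSP1-Cre;NT3 tumors and at most 80.4 CPM in the others, and neutrophil and adipocyte markers are highest in the 2 perineal tumors.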

How the data were processed

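Gene-level RNA-seq values of 6 tumors were used. According to the methods, the authors aligned the reads to mm10 with HISAT2 and counted reads per gene with featureCounts, while the submitters' processing notes name bcl2fastq, TopHat2 2.0.6 and HTSeq. Which tools made the table, and its strandedness, are not given in the sources used here. The deposited counts are whole numbers per gene, treated here as raw. The authors also deposited RPKM values, used here only between genes. Every deposited count is even, and a fit on halved counts is among the alternatives. Of 85 members, 23 share exon bases with another gene of GENCODE M21.

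The tests ran in edgeR 4.0.16 under R 4.3.3 (filterByExpr, TMM, glmQLFit, glmQLFTest) between lines and between sites, each without a covariate, with Benjamini-Hochberg adjustment over all genes tested. The tests were tried on simulated data first. DESeq2 1.42.0 and other scalings, filters, covariates and tumor subsets were alternatives. The members and lists were chosen with earlier results of these data known. Any member could be named by its level. Log2 fold changes are given for the 6 members with the smallest unadjusted p of each comparison and a fixed set of 12, and those of Il7, Il2rg, Socs3 and Ccl20 were added after their values were seen. Of a list, at most 8 genes by mean CPM and the called genes are named. Line and mouse number came from the titles and site from the source. The authors chose tumors after screening by qPCR for low blood and monocyte markers and by RNA quality, and the effect on members made by blood cells was not tested.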

Additional observations from a re-analysis of the deposited data

Results flagged for a closer look

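Tumor 36 was far from the other 5 for 4 members, by Dixon's criterion on log2(CPM + 0.1) among members with a mean of at least 1 CPM. Il22ra1, the epithelial chain of the IL-22 receptor, was at 32.3 CPM there, with 0.338 CPM in the next tumor. Il17re (20.6 CPM), Il23r (1.09 CPM) and Il4i1 (17.0 CPM) were lowest in that tumor, and the next tumors had 40.6, 2.18 and 30.5 CPM.

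Among the 4 trunk tumors 6 values lay apart. Tumor 18 had 22.4 CPM of Il21r, 13.3 CPM of Il2rb and 2.09 CPM of Il12rb1, where the nearest tumors had 9.35, 9.93 and 2.94 CPM. Tumor 25 had 90.8 CPM of Il20rb and 3.69 CPM of Il13ra2, where the nearest had 68.0 and 16.02 CPM. Il23r was at 3.06 CPM in tumor 13 and 2.28 CPM in the next. In all, 10 values were found in 106 groups of tumors examined, and chance alone gives about 1 in 20 groups, or 5.30.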

How the results depend on the processing

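The number of members past the adjusted threshold was 0 in edgeR's test under all 13 alternatives run between lines. Between sites it was 0 under every alternative that left more than 1 tumor in each group. Without tumor 27 or tumor 36, only 1 perineal tumor was left, so those fits give no count that bears on the sites. DESeq2 called 3 members between lines and 4, 5, 9, 2, 8 and 0 without tumor 13, 18, 25, 27, 29 and 36. Between sites it called 6, and 2, 10, 6 and 8 without tumor 13, 18, 25 and 29. The share of all genes called moved too, from 1.13% to 21.6% between lines and from 1.88% to 4.39% between sites. These counts alone therefore say nothing about the members. The cause of the difference between the tests was not tested. Library sizes alone moved the median log2 fold change of all genes between lines from 0.01 to 0.12. The DESeq2 fits that leave out a tumor were chosen after seeing the data. No paired analysis was possible because the tumors of the groups share no replicate numbers.

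The direction between lines turned for 6 members. With site as a covariate and on trunk tumors alone, where 1 FSP1-Cre;NT3 tumor is assumed to vary like the others, the log2 fold changes were -1.30 and -1.31 for Il1b, -1.58 and -1.59 for Il1rn, -0.12 and -0.13 for Il18, -0.17 and -0.18 for Il33, -1.14 and -1.15 for Il6, and 0.0039 and 0.00058 for Il4ra. Leaving out 1 tumor gave -0.31 to 1.09 for Il1rn and -0.076 to 1.46 for Il18, and DESeq2 without tumor 36 gave -0.33 and -0.090. Il4ra had 0.090 with library sizes alone, -0.23 to 0.17 when 1 tumor was left out, and 0.19 and 0.11 by DESeq2 without tumors 25 and 36. Between sites, Il18 ranged from -0.0055 to 1.78 when 1 tumor was left out and had -0.035 by DESeq2 without tumor 36. Il4ra had 0.061 with library sizes alone, -0.40 to 0.24 when 1 tumor was left out, and 0.092 and 0.21 by DESeq2 without tumors 25 and 36. Il1r2 had -0.0085 with line as a covariate and -0.014 among FSP1-Cre;NT3 tumors. The other log2 fold changes, 10 of 16 between lines and 13 of 16 between sites, kept their direction under every alternative run. The edgeR adjusted p of Il6, Il2ra, Il2rb and Il1rl1 between sites was at least 0.196 in every alternative. That of Il22ra1 passed the threshold only without tumor 27, where tumor 36, the only one with a high level, was the single perineal tumor. At an unadjusted p under 0.05, edgeR counted 3 to 18 members between lines and 6 to 23 between sites, leaving aside fits with 1 tumor in a group. Between lines these were 4.55% to 26.5% of members, beside 2.15% to 25.2% of all genes. Between sites they were 8.82% to 33.8% of members, beside 1.55% to 13.5% of all genes.

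With 2 perineal tumors and 3 tumors per line, the number of tumors limits the precision. Below about 0.1 CPM single counts matter, and members such as Il22, Il9 and Il25 did not pass the filter.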
